A study of Rattus norvegicus with 6 samples.

Results

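The 264 genes described here had well-expressed RNA in BRIN-BD11 cells without drug. Their mean share of the counts was at least 2.5-fold lower with MS-275. They were chosen by their own values. A gene entered when its mean over the 3 control libraries was at least 10 CPM (the count of a gene per 1000000 counts on all genes of that library) and its mean over the 3 MS-275 libraries was at most 0.4 times the control mean. The rule took 264 of 22250 listed genes, or 2.74% of the 9642 genes that met the control level. The other 9378 genes at that level are the reference below, and 216 of them were at least 2.5-fold higher with MS-275.

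BRIN-BD11 is an insulin-secreting line made by electrofusion of RINm5F rat insulinoma cells with islet cells of the New England Deaconess Hospital (NEDH) rat. All 6 libraries were made from whole-culture RNA of cells at passage 25. The 3 treated libraries came from cells given 5 µM MS-275 (entinostat), an inhibitor of class 1 histone deacetylases, for 16 h in 0.1% DMSO. The 3 control libraries, labelled WT, came from cells that the labels give no treatment, while the study describes them as given DMSO, at a lower percentage than the labels state for MS-275. A single dose and a single time were used, and no label says whether the 3 libraries of a group came from separate cultures, so the spread between them may be technical. BRIN-BD11 cells are partly tumour-derived and divide in culture, unlike most beta cells of the adult islet.

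Class 1 histone deacetylases remove acetyl groups from histone tails and from other proteins, and they act as the catalytic subunits of several co-repressor complexes. Their inhibitors raise histone acetylation, a mark of accessible, transcribed chromatin, and yet these drugs are known to lower the transcripts of many genes as well as to raise others. In beta cells, class 1 deacetylases have been studied for their part in insulin secretion and in responses to inflammatory cytokines.

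The files name genes by Ensembl identifier only and do not pair the identifiers with gene symbols, and the reference table gave a symbol for 0 of the 22250. What the 264 genes encode is therefore not described, no pathway was counted, the beta cell markers of the line could not be checked, and no promoter was matched to a gene. Only 2 identifiers are printed, those of the gene with the lowest ratio and of the gene with the highest control level; other genes are given by rank.

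Counts on genes ran from 5692971 to 7982477 in the control libraries and from 5230555 to 9172422 in the MS-275 libraries. This was 29.2% to 31.4% of each file's sum over genes and summary lines, and the rest was assigned to no gene. No library was a copy of another: within a group, each pair of libraries differed by more than counting error over genes (chi-square per degree of freedom from 1.79 for control replicates 2 and 3 to 11 for MS-275 replicates 1 and 3). Control replicate 1 and MS-275 replicate 3 each stood nearer to the opposite group over the lowered genes, as given below, and the counts without them are given with the alternatives.

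The lowered genes included transcripts of low, middle and high level in controls. Their control means ran from 10.1 to 830.5 CPM with a median of 53.7 CPM and quartiles of 26.2 and 99.7 CPM. With MS-275 their means ran from 2.22 to 232.8 CPM with a median of 17.4 CPM. None fell to 0 in any library: the lowest count of any of the 264 genes was 8 reads in an MS-275 library and 52 reads in a control library.

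**Figure D1:**
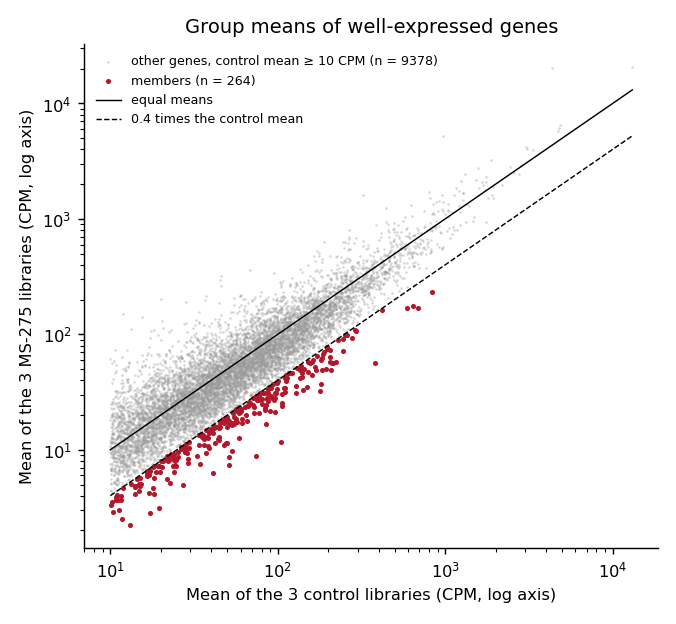
Mean CPM of each well-expressed gene in the 3 MS-275 libraries against its mean in the 3 control libraries, both on log axes; red points are the 264 lowered genes, grey points the other 9378 genes, the solid line marks equal means and the dashed line 0.4 times the control mean. The red points lie at or under the dashed line by the rule that chose them, from 10.1 to 830.5 CPM in controls.

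Most of the 264 genes lay close to the limit that chose them. The median ratio of MS-275 mean to control mean was 0.343, a 2.91-fold lower level or -1.54 on the log2 scale, and the quartiles were 0.289 and 0.377. Only 32 genes were at least 4-fold lower and 13 at least 5-fold lower, and 4 had a ratio of at most 0.15. The median log2 ratio of the other well-expressed genes was -0.16, and that of all 9642 was -0.18, so CPM put the typical gene slightly below its control level too. The last 3 genes inside the limit had control and MS-275 means of 18.18 and 7.256 CPM (ratio 0.3991), 21.95 and 8.76 CPM (0.3992), and 37.03 and 14.78 CPM (0.3992). The first 3 outside had means of 45.5 and 18.22 CPM (0.4004), 127.3 and 50.99 CPM (0.4004), and 42.9 and 17.21 CPM (0.4012). No gap separated the chosen genes from the rest: 31 of the 264 had a ratio over 0.39, and 30 genes had one over 0.4 and up to 0.41. At the control level the edge was as smooth, with 6 chosen genes between 10 and 11 CPM and 6 more between 9 and 10 CPM that met the ratio but not the level.

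Counting error alone reached across the limit for many of the genes. For each gene the Poisson error of its 6 counts was carried to the ratio of mean CPM that the rule used, as a 95% interval by the normal approximation on the log scale, which covers counting error and no other. It lay wholly at or under 0.4 for 142 genes and reached above 0.4 for 122. Whether a gene of ratio near 0.4 belongs on one side or the other was thus not detectable at this depth.

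The gene with the lowest ratio was ENSRNOG00000007319. It stood at 43.1, 135.7 and 136.0 CPM in control replicates 1, 2 and 3 and at 12.5, 11.5 and 11 CPM in the MS-275 replicates. The MS-275 libraries were close together at 11.6 ± 0.742 CPM (SD, n = 3), while control replicate 1 held 0.317 times the mean of the other controls. The groups did not overlap, and the ratio of the means was 0.111, a 9.01-fold lower level, although the control mean of 105 ± 53.5 CPM (SD, n = 3) rested mainly on control replicates 2 and 3.

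The gene with the highest control level was ENSRNOG00000053047. Its control libraries held 783.4, 821.9 and 886.0 CPM, and its MS-275 libraries held 170.0, 212.4 and 315.9 CPM. Here the controls were even, at 830.5 ± 51.8 CPM (SD, n = 3), and the spread lay in the treated group, at 232.8 ± 75.1 CPM (SD, n = 3), with MS-275 replicate 3 the highest. The ratio was 0.280, or 3.57-fold lower, and the highest MS-275 library stood at 0.403 times the lowest control.

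The next genes by ratio showed both kinds of spread. The second-ranked gene held 30.4, 98.2 and 92.7 CPM in controls and 9.21, 7.46 and 10.0 CPM with MS-275, so that control replicate 1 again lay far below its partners and the treated libraries were even. The third held 46.0, 54.1 and 53.6 CPM in controls and 5.96, 6.31 and 9.81 CPM with MS-275, with even controls and MS-275 replicate 3 the highest. The fourth, also the sixth-highest of the 264 genes in controls, held 275.4, 437.0 and 425.8 CPM and then 52.6, 55.4 and 62.5 CPM, and the fifth held 23.2, 51.9 and 48.7 CPM and then 6.14, 7.46 and 5.23 CPM. In 4 of the 5 genes with the lowest ratio, control replicate 1 was at most 0.7 times the mean of the other controls. It was so in none of the next 8, which completed the 13 genes lowered at least 5-fold. Within those 8, control replicate 3 was low in the ninth- and tenth-ranked genes, at 0.623 and 0.682 times the mean of the other controls. In the sixth-ranked gene the controls were almost equal, at 19.6, 19.3 and 19.5 CPM, while the treated libraries held 1.81, 3.06 and 4.47 CPM.

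Among the most abundant of the lowered genes, the second-highest in controls was at 687.3 ± 5.13 CPM (SD, n = 3) and fell to 170.0 ± 26.3 CPM (SD, n = 3), a ratio of 0.247. The third stood at 645.7 ± 49.7 CPM and 174.6 ± 30.1 CPM (SD, n = 3 each) and the fourth at 591.8 ± 97.1 CPM and 170.8 ± 2.85 CPM (SD, n = 3 each). These 4 genes of highest control level, the first being ENSRNOG00000053047, had group means of 591.8 to 830.5 CPM in controls. Their group means after treatment were 170.0 to 232.8 CPM. The fifth, at 419.9 ± 24.3 CPM in controls and 163.7 ± 11.3 CPM with MS-275 (SD, n = 3 each), had a ratio of 0.39, just inside the limit.

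**Figure D2:**
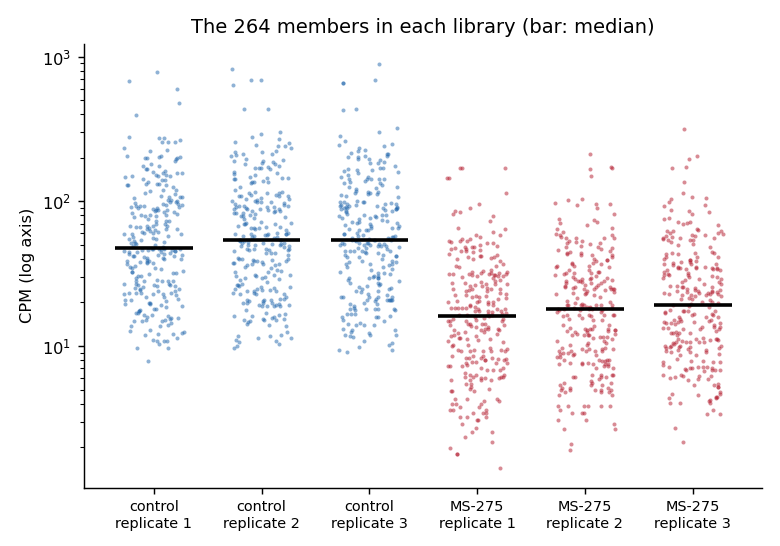
CPM on a log axis of the 264 lowered genes in each of the 6 libraries, 1 point per gene with the median as a bar; blue points are control and red points MS-275 libraries. The medians were 47.9, 54.2 and 54.1 CPM in controls and 16.2, 17.9 and 19.3 CPM with MS-275.

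In every library the lowered genes were a small part of the RNA. They took 2.12%, 2.31% and 2.29% of the counts on genes in the controls, a mean of 2.24% ± 0.102 (SD, n = 3), and 0.638%, 0.7% and 0.799% with MS-275, a mean of 0.712% ± 0.0814 (SD, n = 3). The genes raised at least 2.5-fold took a larger share of the treated libraries, between 5.37% and 5.58%, against 1.38% to 1.54% of the controls. These RNAs came from whole cultures, so fewer cells that express a gene and less RNA of it per cell cannot be told apart.

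The share of genes lowered beyond 2.5-fold changed little with the control level. It was 2.64% of genes at 10 to 20 CPM in controls (43 of 1631), 2.69% at 20 to 50 CPM (80 of 2973), 3.16% at 50 to 100 CPM (75 of 2373), 2.80% at 100 to 200 CPM (45 of 1608) and 1.99% at 200 CPM or more (21 of 1057). The median log2 ratio of the chosen genes lay between -1.49 and -1.59 in the first 4 classes and was -1.79 in the last. The share of genes raised at least 2.5-fold fell from 5.70% of the lowest class (93 genes) to 0.757% of the highest (8 genes). Genes lowered beyond 2.5-fold thus formed a similar share at every level, and raised genes a falling one. The difference between the 2 patterns was not tested.

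All 264 genes had every MS-275 library below every control library. Among all 9642 well-expressed genes 46.3% did so, and the rule had already used these values, so nothing is read from the count. As a measure of distance between the groups, the highest MS-275 library stood at 0.202 to 0.703 times the lowest control, with a median of 0.428, and at no more than 0.5 times in 220 genes. In 94 genes every treated library was at most 0.4 times every control. For the remaining genes the rule was met by the means while at least 1 pairing of a treated with a control library lay above the limit.

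edgeR's quasi-likelihood test on the counts, run over the 12596 genes that passed its low-count filter, also called all 264 genes lower at a Benjamini-Hochberg adjusted p under 0.05. The same fit called 31.5% of all tested genes lower (3966 genes) and 4039 higher. Since the genes were selected on the same contrast, this count is a description and no p-value is given for single genes.

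To see the same measure in libraries that did not choose the genes, the rule was applied 3 times to 4 libraries, each time leaving out the control and the MS-275 library that carry one replicate number. No label says that libraries of the same number belong together, and the number is used here only as a name. Without the libraries numbered 1, the rule chose 244 genes, of which 217 are among the 264. In the left-out pair all 244 stood lower with MS-275, where 62.0% of the 9589 well-expressed genes did so, and 186 (76.2%) were again at most 0.4 times the control, against a background of 3.78%. Without the libraries numbered 2, it chose 248 genes (228 shared), all of which stood lower in the left-out pair against 62.1% of the 9652 genes at that level, and 198 (79.8%) were at most 0.4 times the control against 3.62%.

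The libraries numbered 3 gave smaller differences. Without them 328 genes were chosen, 247 of them among the 264, and all 328 stood lower in the left-out pair (background 61.7% of 9665 genes), but only 158 (48.2%) were at most 0.4 times the control (background 2.29%). The median log2 ratio of the chosen genes in the left-out pair was -1.63, -1.61 and -1.30 for numbers 1, 2 and 3, against -1.54, -1.56 and -1.57 in the libraries that chose them. All well-expressed genes had medians of -0.18, -0.19 and -0.17 in the same left-out pairs. The direction of the chosen genes was thus met in every left-out pair, whereas the size in the pair numbered 3 fell short of that in the libraries that did the choosing. The highest ratio of a chosen gene in a left-out pair was 0.652, 0.845 and 0.903.

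**Figure D3:**
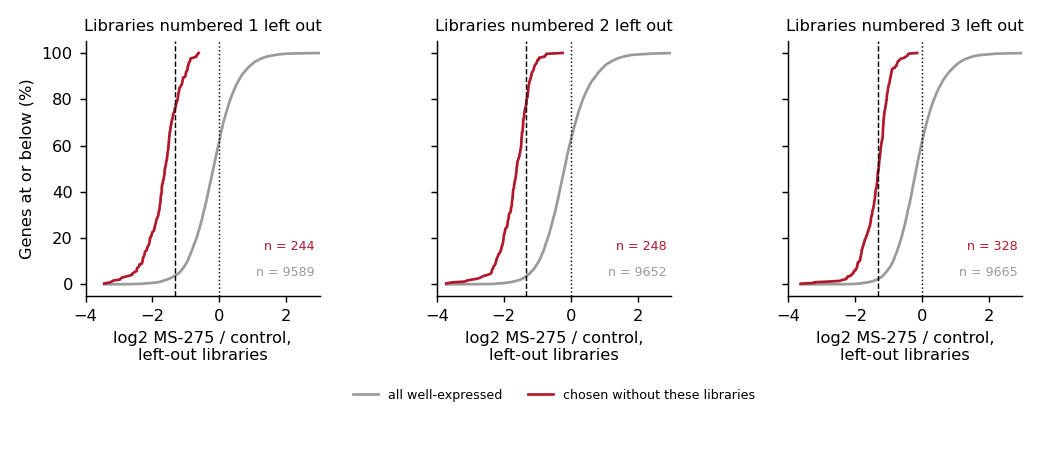
Cumulative share of genes (vertical axis, percent) by log2 ratio of the left-out MS-275 to the left-out control library (horizontal axis), 1 panel per replicate number; red lines are the genes chosen in the other 4 libraries (n = 244, 248 and 328), grey lines all well-expressed genes, the dashed line marks a ratio of 0.4 and the dotted line equality. The red lines end before equality in all 3 panels, and cross the dashed line at 76.2%, 79.8% and 48.2%.

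The shortfall of number 3 was found in the MS-275 library. Against the control mean, the 264 genes had a median log2 ratio of -1.74 in MS-275 replicate 1, -1.61 in replicate 2 and -1.39 in replicate 3, an SD of 0.17 over the 3 libraries. MS-275 replicate 3 held the highest of the 3 treated values for 177 of the genes (67.0%), and for 39.1% of the other well-expressed genes. MS-275 replicate 1 held the lowest for 186 (70.5%), against 38.5% of the others. As a log2 difference from the mean of its own group, the median of the lowered genes was -0.16, 0.00 and 0.16 in MS-275 replicates 1, 2 and 3, while the medians of the other genes lay within 0.01 of 0. The median of the lowered genes thus shifted between these libraries, and the median of the other genes did not. Shifts up and down among the other genes can cancel in such a median. The raised genes, which are part of them, moved the other way, as given below.

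The controls differed less. Control replicate 1 held the lowest of the 3 control values for 144 of the 264 genes (54.5%), against 36% of the other well-expressed genes, and the median differences from the control mean were -0.05, 0.04 and 0.02 in control replicates 1, 2 and 3. The 216 raised genes were arranged the other way, with medians of 0.19, -0.08 and -0.11 in the controls and 0.12, 0.03 and -0.13 in the MS-275 libraries. Control replicate 1 was the highest control for 165 of the raised genes, and MS-275 replicate 3 the lowest treated library for 153 of them. Both libraries thus stood nearer to the other group in the lowered and in the raised genes. What these libraries share or lack was not tested.

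**Figure D4:**
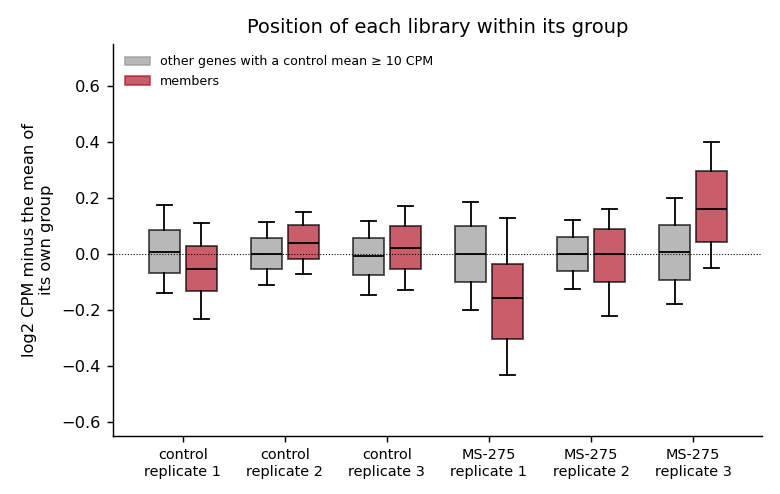
Log2 CPM minus the mean of the library's own group (vertical axis) for the 264 lowered genes (red) and the other 9378 well-expressed genes (grey) in each library; boxes span the quartiles, bars mark medians and whiskers the 10th to 90th percentiles. The red medians are -0.16, 0.00 and 0.16 in the MS-275 libraries and the grey medians stay within 0.01 of 0.

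Over the 9 pairs of 1 control with 1 MS-275 library, the median log2 ratio of the lowered genes ran from -1.37 (control replicate 1 with MS-275 replicate 3) to -1.77 (control replicate 2 with MS-275 replicate 1). Each gene was lower in all 9 pairs, which restates that its groups did not overlap, as in 46.3% of all 9642 well-expressed genes. The rule had used these libraries, so nothing is read from that count. Between 152 and 244 genes were at most 0.4 times the control in a pair, the extremes being the pairs named above. The medians of the other genes moved only between -0.15 and -0.17.

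The lowered genes varied more among treated libraries than other genes did. The coefficient of variation (CV, the SD as a percentage of the mean, n = 3 per group) had a median of 16.0% with MS-275, against 8.85% for the other well-expressed genes, and was over 25% for 58 of the 264 genes (22.0%) against 267 of the others (2.85%). Counting alone would give a median of 9.52% for the lowered genes and 5.69% for the others. Among genes of like level after treatment, those with an MS-275 mean between the quartiles of the lowered genes, the median CV was 14.7% for 132 lowered genes and 11.1% for 3081 others, with counting shares of 9.52% and 8.75%. In that range 19.7% of the lowered and 4.97% of the other genes had a CV over 25%. The CV includes the shift of the lowered genes between MS-275 libraries given above, and its part in the spread was not separated. The difference in spread was not tested.

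In controls the same comparison gave closer values. The median CV was 7.84% for the lowered genes and 6.77% for the others, with counting shares of 5.17% and 5.21%, and the CV was over 25% for 8 lowered genes (3.03%) and 150 others (1.60%). For 207 of the 264 genes (78.4%) the CV was higher with MS-275 than in controls, as it was for 62.3% of the others. The SD relative to the mean was thus mostly larger on the treated side. Counting alone would give the lowered genes a median CV of 5.17% in controls and 9.52% with MS-275, against 5.21% and 5.69% for the others. The rule chose genes with a lower level after treatment, so part of this difference was set by the choice.

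Among the lowered genes, low values in a single control were mostly those of control replicate 1, which was at most 0.6 times the mean of the other controls for 5 of the 264 genes (1.89%) and for 11 of the other 9378 genes (0.117%), and at most 0.7 times for 15 (5.68%) and 71 (0.757%). Control replicate 2 gave 0 lowered genes at either limit, and control replicate 3 gave 0 at 0.6 and 4 (1.52%) at 0.7. Of the other genes, 0.320% and 0.789% were at most 0.7 times in control replicates 2 and 3. Low single controls were not particular to the lowered genes. Of the 216 raised genes, 0, 4 and 4 were at most 0.6 times in control replicates 1, 2 and 3. At 0.7 these were 1 (0.463%), 9 (4.17%) and 16 (7.41%). The 5 lowered genes at most 0.6 times in control replicate 1 had a median log2 ratio of -2.72 between the groups. Of these, 3 were among the 13 lowered at least 5-fold. In these 5 genes, as in all 264, the controls stood above the treated libraries, the lowest control being at least 1.81 times the highest MS-275 library. Of the 11 other genes with the same low value in control replicate 1, 9 had a lower mean with MS-275, and their median log2 ratio was -0.21. The rule had used this ratio to part the lowered genes from the others, so nothing is read from the difference. These limits were chosen after the values were seen.

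**Figure D5:**
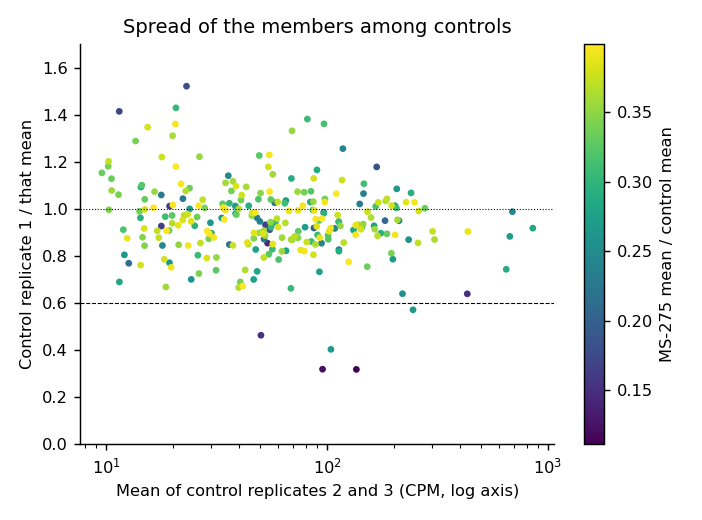
Control replicate 1 divided by the mean of control replicates 2 and 3 (vertical axis) against that mean in CPM (log axis), 1 point for each of the 264 lowered genes, coloured by the ratio of MS-275 mean to control mean; the dotted line marks equality and the dashed line 0.6. The 5 points under the dashed line include the 2 genes of lowest ratio.

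Most of the chosen genes met the rule again with any 1 library left out. The remaining libraries had also chosen them, so this describes their distance from the limits and is no test. When each library was left out in turn, 182 of the 264 genes (68.9%) were chosen all 6 times, with a median ratio of 0.315 and a highest of 0.389. The other 82 genes missed the rule at least once. Of these, 81 went above the ratio limit, with ratios from 0.333 upward over all libraries, and 1, with a ratio of 0.282, missed only the control level. Leaving out MS-275 replicate 1 removed the most, 56 genes, and added 10, while leaving out MS-275 replicate 3 added the most, 77 genes, and removed 10. Leaving out control replicate 1 added 39 and removed 11, control replicate 2 added 4 and removed 21, control replicate 3 added 13 and removed 22, and MS-275 replicate 2 added 20 and removed 22. Across the 6 sets, 376 genes were chosen at least once. With both control replicate 1 and MS-275 replicate 3 left out, a choice made after seeing the data, 363 genes met the rule, 252 of them among the 264, and the median log2 ratio of the 264 genes was -1.65.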

How the data were processed

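The deposited files give raw counts of reads per Ensembl gene for each of the 6 libraries. The authors trimmed reads with Trimmomatic (0.36v), removed contaminant reads with bowtie2 and then ran STAR (0.27v) against build Rnor_6.0, versions per the submitters' processing notes. The methods name featureCounts, yet each count file ends in the 5 summary lines of htseq-count; strand setting and annotation release are not given in the sources used here. Reads on those lines, which name no gene, were left out. Of the sum over genes and summary lines, 29.2% to 31.4% lay on genes. The line for alignments that were not unique held 7.95% to 9.19%, and that for ambiguous reads 0.172% to 0.216%. The larger part thus lay on the other summary lines, and why was not tested. Any reads of listed genes on those lines are missing from CPM. Members of near-identical gene families and overlapping genes are uncertain too.

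CPM was computed on the sum over the 22250 genes, and the rule (control mean at least 10 CPM, ratio of means at most 0.4) was applied with no test. The 264 genes, the lists and the limits were chosen with earlier results of these data known. Calls over all genes came from edgeR 4.0.16 in R 4.3.3 (TMM factors, filterByExpr, robust glmQLFit, glmQLFTest, Benjamini-Hochberg over 12596 genes, adjusted p under 0.05), with DESeq2 1.42.0 as an alternative; both the rule and the fit were tested on simulated data. A table of the authors' own comparison (group means of normalised counts, log2 fold changes with standard errors, test statistics and p-values) was not used.

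Genes to be named were those of lowest ratio, of highest control level, in fixed gene lists, nearest the limit and of largest control spread. Identifiers matched no symbol among the 47357 genes of the RefSeq rat table (assembly GRCr8), so the gene lists, marker lists and promoter sequences could not be applied, at most 2 identifiers are printed, and the order of naming follows rank; the limits on control replicate 1 and the matched level after treatment were set after seeing the data. Replicate numbers are shared by the groups, but no label says that they pair cultures; the alternatives are given with their effect in the closing section.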

Additional observations from a re-analysis of the deposited data

How the results depend on the processing

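The number of genes moved with the limits of the rule: 692 at a ratio of at most 0.5, 111 at 0.33, and 94 where the highest MS-275 library had to be at most 0.4 times the lowest control. Other choices changed it by less than 1.5 times: 212 with TMM factors, 213 with DESeq2 size factors, 299 and 221 with a control mean of at least 5 and 20 CPM, 286 on group medians, and 218 to 331 with each library left out in turn. The median log2 ratio of the 264 genes stayed between -1.65 and -1.48, including the set without control replicate 1 and MS-275 replicate 3.

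Over all genes, edgeR's quasi-likelihood test called 3966 lower and 4039 higher, against 4451 and 3661 on library sizes, 3287 and 4593 with upper-quartile scaling, 3545 and 3919 with DESeq2, 4178 and 4463 with no low-count filter, and 3401 to 3952 and 3615 to 4093 with each library left out. The scaling moved the median log2 fold change of all genes tested by edgeR from -0.08 (library sizes) through -0.01 (TMM) to 0.08 (upper quartile). The 264 genes were selected on the same contrast in the same libraries, so their calls in these fits are a description and no test. The main fit called 31.5% of all tested genes lower. All 264 genes were called lower in each of these fits except without MS-275 replicate 1 (262) and without MS-275 replicate 3 (261). ENSRNOG00000007319 was among those not called in the latter, at a log2 fold change of -3.06 against -3.11 with all libraries. Its log2 fold change ranged from -3.49 to -2.87 over the alternatives, and that of ENSRNOG00000053047 from -2.05 to -1.57.

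A fit with the replicate block called 4113 genes lower and 4142 higher. It called all 264 lower, which is likewise a description, since the same contrast had selected them. Libraries of the same number shared deviations from their group means only weakly over 12596 genes (correlations 0.17, -0.02 and 0.13). Libraries of different numbers gave correlations from -0.24 (control replicate 1 with MS-275 replicate 3) to 0.16 (control replicate 2 with MS-275 replicate 3). The main fit took no pairs because the study names no pairing. The alternatives on gene lists and promoters were not run, since no identifier matched a symbol. With 3 libraries a group, spread is poorly known, and depth leaves the ratio of 122 of the 264 genes within counting error of the limit.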
